A study of Saccharomyces cerevisiae with 3 samples.

Results

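Saccharomyces cerevisiae genes lying beside genes whose transcripts were lower in a YAP1 mutant were examined in cells under arsenite, the trivalent form of arsenic. The 9 genes were DSF2, URA8, FMP25, ALG7, FUS1, OSH2, RTT105, NUP157 and ECM21, of 5539 named genes measured, and each had 2 spots. They came from a list of names, chosen because they lie near lowered genes on the chromosome. The choice was made with the ratios of these same arrays in view. Their ratios are therefore given as a description, and they support no statement about neighbours in general. Where an adjusted p of a listed gene is printed, it only places the gene beside the threshold used for all genes. Because of how the list was chosen, it is no evidence for that gene.

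RNA of the mutant, which the labels call YAP1 mutant and the title a deletion, was hybridised against wild-type RNA on each of 3 two-colour arrays, numbered replicates 1 to 3. Both strains had been exposed to 1.0 mM arsenite for 1 h. There was no array of unstressed cells, so the ratios compare the strains under arsenite and do not show a response to it. Strain background and mating type are not known here. Mutant RNA always carried Cy5 and wild-type RNA Cy3, and an effect of the dye on a gene cannot be told apart from an effect of the strain. Whether the replicates were separate cultures is not stated, so the errors rest on the spread between these arrays only, which may be technical.

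Yap1 is a bZIP transcription factor that gathers in the nucleus when cells meet oxidants or thiol-reactive metals, and it activates genes of redox balance and drug export by binding short sites in their promoters. The yeast genome is compact, and the position of a gene relative to its neighbour decides what the pair shares. Divergent genes are read away from a common stretch that holds both promoters. Tandem genes follow one another on the same strand, the end of the first standing before the promoter of the second, and convergent genes are read towards each other and meet at their ends. In the systematic names used here the letter W or C gives the strand, from which each pair was classed.

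Values are log2 ratios of mutant over wild type after a signal trend was removed from each array by loess, with the standard error (SE) of limma's fit over n = 3 arrays. In that fit the variance of each gene is drawn towards a value shared by all genes, so the SE is not the spread of 1 gene alone. For OSH2 the SD over the arrays was 0.48 and the SE 0.18, and for URA8 the SD was 0.09 and the SE 0.14. Which strain is the numerator of the deposited ratio is not stated. The likely numerator is the mutant, judged by the titles, by the dyes and by the ratio of YAP1 itself, which was -0.37, -1.21 and -1.05 on replicates 1, 2 and 3. The replicate 1 value averages spots of 0.03 and -0.77, so 1 spot shows no decrease there, and the mean of YAP1 over the arrays corresponds to 54.5% of the wild-type signal in a strain titled a deletion. A gene is called lower at a Benjamini-Hochberg adjusted p under 0.05 in limma's test over all 5539 genes. By that rule 162 genes were lower and 26 higher, and a "lowered gene" below is 1 of these 162. Which part and strand of a gene its spots read is not known here.

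All 9 neighbours had ratios below 0 on all 3 arrays. Their mean ratios ran from -1.40 for DSF2 to -0.65 for URA8 with a median of -0.91, against -0.01 over all measured genes. With the mutant as numerator its level lay between 37.8% and 63.9% of the wild-type level, and with the sign turned the same ratios would stand for 1.56-fold to 2.65-fold more in the mutant. DSF2 alone changed by 2-fold or more. Of the 9, 8 were called lower, beside 2.92% of all genes, and 0 higher, beside 0.469%. Because the list was chosen from this contrast, nothing is read from that count. OSH2 lay just inside the threshold (limma, adjusted p = 0.0297) and ECM21 just outside it (limma, adjusted p = 0.0692). The lowered gene nearest a neighbour had the lower mean of the pair in 7 of 9 cases, but at the RPN4 and SSA4 loci both had similar ratios, as the plot of neighbours and lowered genes by array shows.

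**Figure D1:**
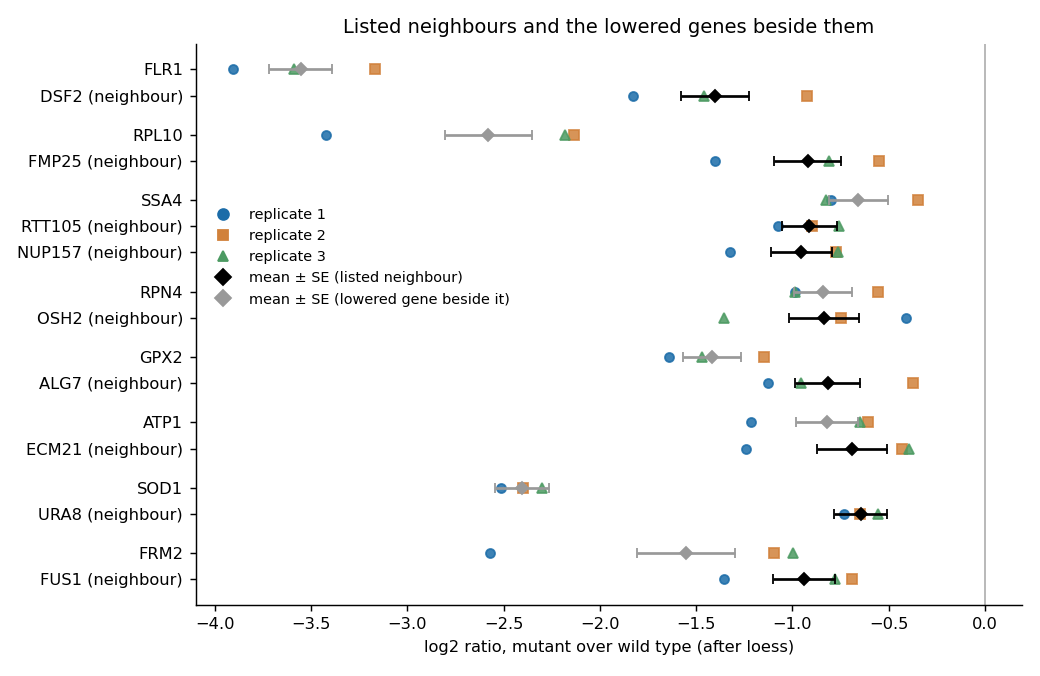
Log2 ratio of mutant over wild type (x axis) for the 9 listed neighbours and the lowered genes nearest them (y axis), with each array as a coloured point and the mean ± SE of limma's fit (n = 3) as a diamond. DSF2, FMP25 and URA8 lie well to the right of FLR1, RPL10 and SOD1, whereas OSH2 and RPN4 share a mean near -0.84 before any correction for print position.

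Of the listed neighbours in tandem pairs DSF2 had the largest decrease (YBR007C, chromosome II), named for suppressing an mpt5 mutant when deleted. DSF2 had -1.83, -0.92 and -1.46 on replicates 1 to 3, a mean of -1.40 ± 0.18 (SE). It lies directly downstream of FLR1 (YBR008C) on the same strand, which encodes a multidrug exporter of the plasma membrane and is a classic Yap1 target. FLR1 had -3.90, -3.17 and -3.59, a mean of -3.55 ± 0.16. The ranges of the 2 genes did not overlap, and both were lowest on replicate 1 and highest on replicate 2. On the other side of FLR1 the histone H4 gene HHF1 had -0.53 and the histone H3 gene HHT1 -0.29, neither called. UGA2, beyond DSF2, had -0.31 and was not called. The print block of the DSF2 spots had median ratios of 0.56, -0.31 and -0.15 on the 3 arrays, and with block medians subtracted DSF2 had -1.44 and was not called (limma, adjusted p = 0.0768).

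FMP25 (YLR077W, chromosome XII), which encodes a mitochondrial inner membrane protein needed early in the assembly of respiratory complex III, lies downstream of RPL10 (YLR075W). FMP25 had -1.40, -0.55 and -0.81 on replicates 1 to 3, with a mean of -0.92 ± 0.17. RPL10, the gene of a large-subunit ribosomal protein, had -3.42, -2.13 and -2.18, a mean of -2.58 ± 0.23. Both genes were clearly lower on replicate 1 than on the other 2 arrays. The next genes stayed near 0, with BOS1 at -0.02 beyond FMP25 and BUD20 at 0.09 on the other side of RPL10. The FMP25 and RPL10 spots stood 2 spot pairs apart in the same print block, and the unnamed feature printed between them had a ratio of -0.04 ± 0.14.

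RTT105 and NUP157 lie side by side on chromosome V and form a run of 3 lowered genes with SSA4, which encodes a stress-induced Hsp70 chaperone. RTT105 (YER104W), whose product escorts the single-stranded DNA binding complex RPA and restrains Ty1 transposition, lies downstream of SSA4 (YER103W). It had -1.07, -0.90 and -0.76, a mean of -0.91 ± 0.14. NUP157 (YER105C), a scaffold nucleoporin gene, faces RTT105 from the opposite strand and had -1.32, -0.77 and -0.76, a mean of -0.95 ± 0.16.

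SSA4 itself had -0.80, -0.35 and -0.83 on replicates 1 to 3, with a mean of -0.66 ± 0.15, the smallest decrease of the 3. The ranges of the 3 genes over the arrays overlapped. The genes on both sides of the run were not called. RPS8B, upstream of SSA4, had 0.05, and MAM1, next to NUP157, had 0.25 with 0.23, 0.24 and 0.27 on the 3 arrays. RTT105 was the brightest of the 9 genes, with a mean log2 signal of both channels of 11.7 against 9.84 for the median gene.

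OSH2 (YDL019C, chromosome IV), a gene of the oxysterol-binding protein family that moves sterols and lipids between membranes, was the neighbour upstream of its lowered gene. RPN4 (YDL020C), the gene of the activator of proteasome genes, itself known to be a Yap1 target, follows it on the same strand. OSH2 had -0.41, -0.75 and -1.36, a mean of -0.84 ± 0.18, and RPN4 had -0.99, -0.55 and -0.99, a mean of -0.84 ± 0.15. OSH2 was the exception among the 9 in being highest on replicate 1, while the other 8 were lowest there. The print block of the OSH2 spots was also highest on replicate 1, with median ratios of 0.46, -0.32 and -0.22 on the 3 arrays. Whether the block accounts for the order of the OSH2 arrays was not tested. With block medians subtracted OSH2 had -0.81 (limma, adjusted p = 0.0496) and RPN4 -1.02. Without replicate 3 the mean of OSH2 was -0.58 and was no longer called. GPM2, on the far side of RPN4, had 0.54, and ERP3, on the far side of OSH2, had 0.13, neither called.

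ALG7 (YBR243C, chromosome II) and GPX2 (YBR244W) formed the divergent pair with no other gene between them. ALG7 encodes the enzyme that begins the lipid-linked sugar chain for N-glycosylation and is the target of tunicamycin, and GPX2 encodes a peroxidase of lipid hydroperoxides. ALG7 had -1.13, -0.37 and -0.95 on replicates 1 to 3, with a mean of -0.82 ± 0.17.

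GPX2 had -1.64, -1.15 and -1.47, a mean of -1.42 ± 0.15, and was thus lower than ALG7 on each array. Both genes were lowest on replicate 1 and highest on replicate 2. The outer neighbours had smaller ratios that were not called, -0.17 for YBR242W beside ALG7 and -0.34 for ISW1, a chromatin remodeller gene, beside GPX2. Of 11 measured genes within 6 places of GPX2, ALG7 left out, 10 lay below 0, beside 52.3% of all genes. The 11 had a median of -0.17 and 0 were called, beside 2.92% of all genes called lower and 0.469% higher. ALG7 was not called without replicate 3 (-0.75, limma, adjusted p = 0.0547) or with block medians subtracted (-0.71, limma, adjusted p = 0.0616).

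ECM21 (YBL101C, chromosome II), which encodes an arrestin-like adaptor that brings the ubiquitin ligase Rsp5 to membrane transporters, also points away from its nearest lowered gene. That gene was ATP1 (YBL099W), the alpha subunit of mitochondrial ATP synthase, but in the RefSeq order of the R64 assembly 3 reading frames, YBL100W-C, YBL100W-A and YBL100W-B, lie between them. None of the 3 was measured under a gene name. ATP1 thus stands 4 places from ECM21, beyond the limit of 3 used to pair a neighbour with a lowered gene. With unmeasured genes passed over, ECM21 and ATP1 would class as divergent, but the 3 reading frames lie in the stretch between them.

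ECM21 had -1.24, -0.43 and -0.39, a mean of -0.69 ± 0.18, and ATP1 had -1.21, -0.60 and -0.65, a mean of -0.82 ± 0.16. Both were about as low as each other on every array, and both stood apart on replicate 1. Their spots were 2 spot pairs apart in 1 print block, whose median ratio was -0.43 on replicate 1, the lowest of all block medians. The gene printed between them, RPL4A, had -0.21, 0.20 and 0.14. After block medians were subtracted ECM21 had -0.53 and ATP1 -0.67. BNA4, the gene after ATP1, had -0.01.

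URA8 (YJR103W, chromosome X) and SOD1 (YJR104C) converge. URA8 encodes the minor CTP synthase of yeast, and SOD1 encodes the copper and zinc superoxide dismutase. URA8 had the smallest mean of the 9 and the tightest arrays, at -0.73, -0.65 and -0.55, with a mean of -0.65 ± 0.14.

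SOD1 had -2.51, -2.40 and -2.30, a mean of -2.41 ± 0.14, far from the range of URA8. The arrays fell in the same order for both genes. ADO1, the adenosine kinase gene on the other side of SOD1, had -0.47, and VPS25, beyond URA8, had 0.07, neither called. Without replicate 2 the ratio of URA8 was -0.64 and without replicate 3 -0.69, and neither was called.

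FUS1 (YCL027W, chromosome III) encodes a membrane protein of cell fusion that is strongly induced by mating pheromone. It faces FRM2 (YCL026C-A), a nitroreductase-like gene, across 1 gene, HBN1, a relative of FRM2 that was not measured under its name. FUS1 had -1.35, -0.69 and -0.78, a mean of -0.94 ± 0.16, and FRM2 had -2.57, -1.09 and -0.996, a mean of -1.55 ± 0.26. Both were much lower on replicate 1, and on each array FRM2 lay below FUS1. RNQ1, upstream of FUS1, had -0.05, and AGP1, the amino acid permease gene next to FRM2, had -0.33. FRM2 was not called with block medians subtracted (-1.35, limma, adjusted p = 0.0611), and its signal lay at percentile 19.2 of all genes, so it drops out where the dimmest genes are left out. FUS1, called with block medians subtracted (-0.81, limma, adjusted p = 0.0178), is listed as a neighbour only through FRM2.

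**Figure D2:**
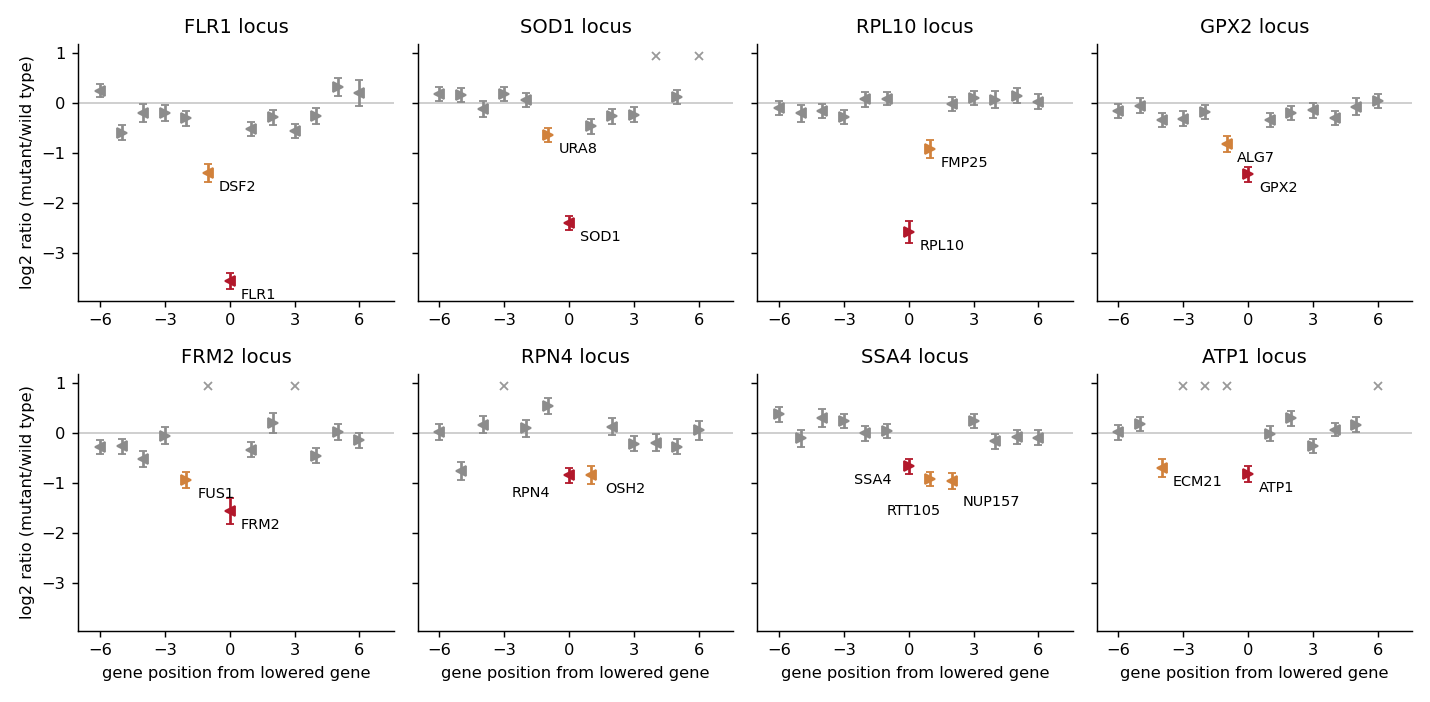
Log2 ratio of mutant over wild type (y axis, mean ± SE of limma's fit, n = 3 arrays) by place in the gene order counted from the lowered gene (x axis), for the 8 loci. Red marks the lowered gene, orange the listed neighbours and grey other measured genes, arrowheads point along the strand, and crosses near the top mark genes with no named spot. The listed genes stand below flanks that mostly lie near 0.

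Across the 8 loci, 21 measured genes lay within 2 places of the lowered gene without being among the 9. Of these 21 genes 0 were called lower and 0 higher, beside 2.92% and 0.469% of all genes. The 9 had been picked from these places with their ratios in view and are left out here, so nothing is read from that count. The ratios of the 21 genes ran from -0.53 to 0.54 with a median of -0.01. The flanks were not equally flat. Within 6 places of the lowered gene the median was -0.26 at both the FLR1 and FRM2 loci and -0.17 at the GPX2 locus, against 0.02 to 0.07 at the SOD1, RPL10, RPN4, SSA4 and ATP1 loci. One flanking gene in that wider span was called, RTK1 near RPN4 at -0.76.

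The ratios of the 2 spots of a gene differed by a median of 0.055 to 0.078 on the 3 arrays. The largest gap between the 2 spots of any of the 9 genes on 1 array was 0.55, for DSF2 on replicate 3, with -1.74 and -1.18. The smallest of the genes' largest gaps was 0.07, for ECM21. All 9 genes had a mean signal above that of the median gene, from 9.86 for DSF2 to 11.7 for RTT105 on the log2 scale. In the plot of ratio against signal RTT105 lies at percentile 96.0 of all genes in brightness, NUP157 at 83.6 and URA8 at 79.9.

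**Figure D3:**
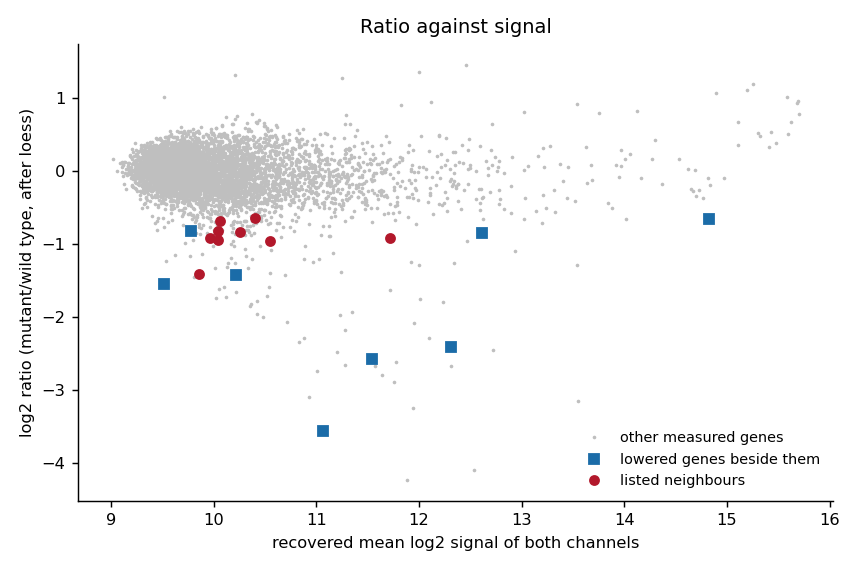
Log2 ratio after loess (y axis, mean of 3 arrays) against the recovered mean log2 signal of both channels (x axis), 1 point per measured gene. The 9 listed neighbours (red) lie between 9.86 and 11.7 on the signal axis, while the lowered genes nearest them (blue) reach 14.8 with SSA4.

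Replicate 1 had the widest spread of ratios over all genes, with an SD of 0.56 against 0.31 and 0.37 for replicates 2 and 3. The median of the 162 lowered genes was -1.28 on replicate 1, -0.74 on replicate 2 and -0.92 on replicate 3, and 78.4% of them were lowest on replicate 1 and 52.5% highest on replicate 2. The medians of the 9 neighbours were -1.24, -0.69 and -0.78.

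To place the 9 genes, every measured gene next to a lowered gene was taken, whatever its own ratio, from 6002 protein-coding reading frames in the RefSeq order of R64. There were 278 such genes, of which 41 (14.7%) were themselves called lower, beside 2.92% of all genes, and 0 were called higher. A pair of adjacent lowered genes contributes both its genes to this count, so the 41 genes stand for 21 pairs. They include 7 of the 9 listed genes. FUS1 is not among them because HBN1 intervenes, and ECM21 because of the reading frames before ATP1. The count is a description from the contrast that defined the lowered genes, and no test was made of it. Without replicate 3 it was 24, or 10% of the genes next to a lowered gene, beside 2.62% of all genes. With print block medians subtracted the count was 19, or 9.79%, beside 2.06% of all genes.

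The 278 neighbours of lowered genes had a median of -0.08, and 60.8% of them lay below 0, against -0.014 and 52.3% for all genes. These 278 include the 41 called lower. The 237 neighbours not called lower had a median of -0.017, with 54.0% below 0. The values for all genes still include the 162 lowered genes, so they are no like measure for these 237. The share called lower was 14.7% at 1 place from the nearest other lowered gene, 4.82% at 2 places, 1.90% at 3 and 5.37% at 4, and 2.05% of 3856 genes beyond 8 places.

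The share lay between 13.3% and 17.2% for the 4 orientations. Of 64 genes divergent from a lowered gene 10 were lower (15.6%), of 64 tandem genes downstream of one 11 (17.2%), of 82 tandem genes upstream 11 (13.4%) and of 75 convergent genes 10 (13.3%). Each tandem pair of lowered genes enters once as downstream and once as upstream, so the 2 counts of 11 are equal by construction. Counted by pair, both genes were lowered in 5 of 59 divergent pairs with a lowered gene (8.47%). For tandem pairs it was 11 of 135 (8.15%) and for convergent pairs 5 of 70 (7.14%). Among the 21 pairs of 2 lowered genes 5 were divergent, 11 tandem and 5 convergent. Of all adjacent pairs of measured genes 25.4% were divergent, 48.2% tandem and 26.4% convergent. In the 11 tandem pairs the upstream gene had the lower ratio in 6 and the downstream gene in 5. The plot by position and orientation shows these shares.

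**Figure D4:**
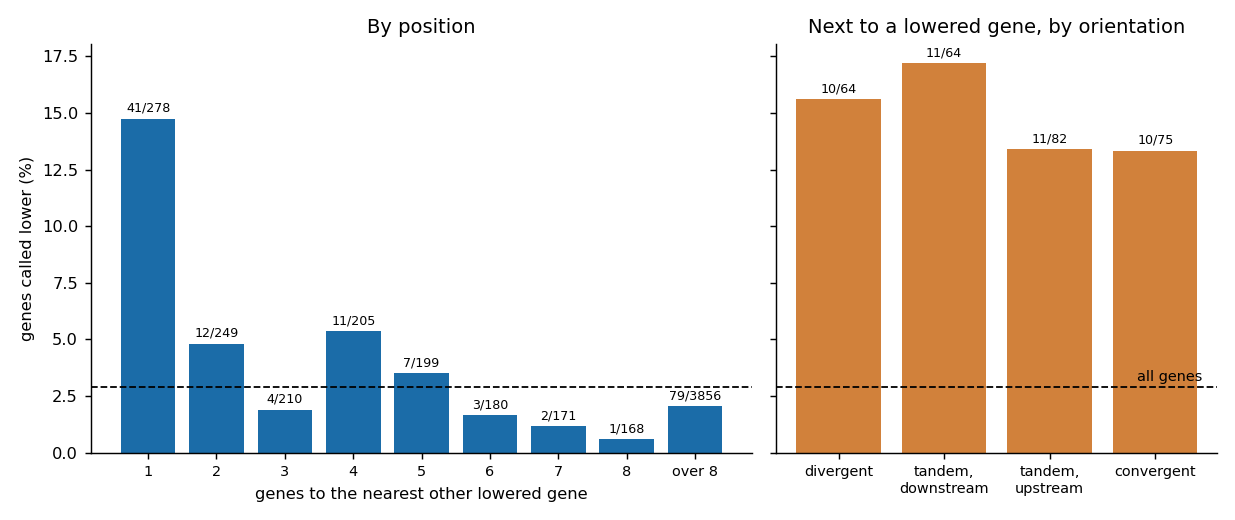
Share of genes called lower (y axis, percent) by the number of places to the nearest other lowered gene (left) and, for pairs directly beside one another, by orientation (right), with the counts above the bars. The dashed line is the share over all genes, 2.92%, and the bar at 1 place stands at 14.7%.

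The 21 pairs were mostly unequal. The stronger gene of a pair had a median ratio of -1.66 and the weaker one -0.77, and in 15 pairs the stronger gene changed by 2-fold or more, but in 4 pairs both did. Beyond the listed genes, the pairs named here are those with the largest decreases in each orientation. Divergent pairs included YMR090W (-2.66) with YTA12 (-0.63), a mitochondrial protease gene, NFU1 (-1.72), for iron-sulfur cluster delivery, with PTM1 (-0.77), and YRO2 (-1.31) with YBR053C (-0.65). Among convergent pairs were YML131W (-3.24) with ERO1 (-1.09), the oxidase gene of the endoplasmic reticulum, and the glutathione synthetase gene GSH2 (-1.66) with RRT8 (-0.77).

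Tandem pairs included the methylglyoxal reductase gene GRE2 (-3.15) with the decapping enzyme gene DCP1 (-0.74) downstream of it, and OSI1 (-3.09) with YKL070W (-1.84). In other tandem pairs the downstream gene was the stronger. The old yellow enzyme gene OYE2 (-2.45) follows STB5 (-1.79), which encodes a regulator of NADPH-producing genes, and the peroxiredoxin gene TSA1 (-1.28) follows USA1 (-0.59). A deep decrease did not always come with a lower neighbour, since neighbours of genes below -2 spread from well above 0 to well below it.

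**Figure D5:**
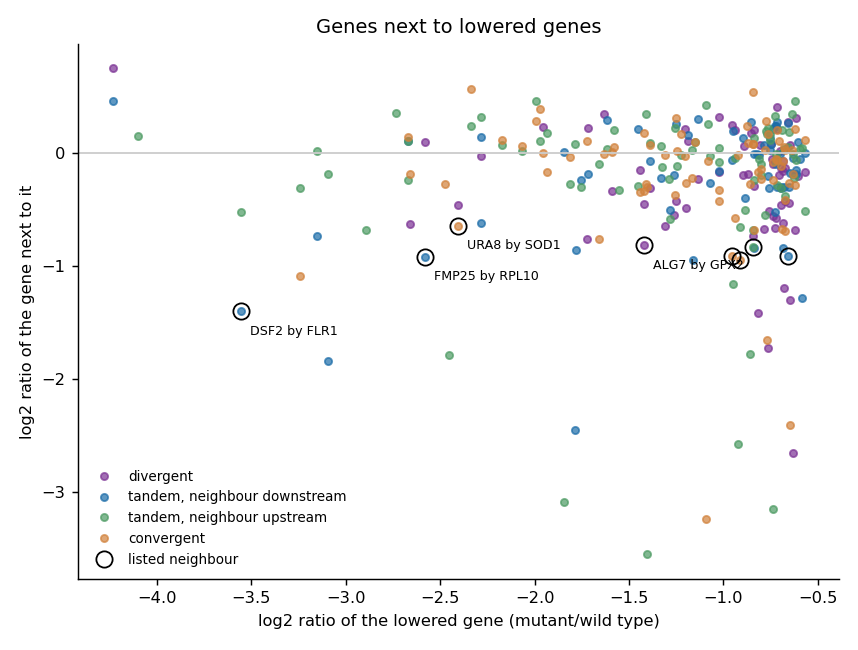
Log2 ratio of a gene next to a lowered gene (y axis) against that of the lowered gene (x axis), 1 point for each of 285 neighbour and lowered gene pairs, coloured by orientation. Black circles mark the listed neighbours, named where the lowered gene is below -1.2, and most other points lie around 0.

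Chromosomal neighbours were often at fixed distances in the order of the spots as well. Of 5095 adjacent pairs of measured genes 79.3% had spots 270 or 272 spot pairs apart, and 6.10% had them 2 apart. DSF2, URA8, ALG7 and NUP157 stood at 270 or 272 spot pairs from the lowered gene nearest them. FMP25 and ECM21 stood 2 away, and FUS1, OSH2 and RTT105 (from SSA4) stood farther off, at 411, 5561 and 1366.

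Among pairs at 270 or 272 that are also next to each other on the chromosome, 32 of 232 neighbours were lower (13.8%). At the same spot distance from a lowered gene, but not next to it on the chromosome, 6 of 310 were lower (1.94%). At 2 spot pairs the counts were 2 of 16 (12.5%) next to each other on the chromosome and 14 of 266 (5.26%) not so. At 1 spot pair, where no chromosomal neighbours stand, 20 of 277 were lower (7.22%). Over all genes 2.92% were lower, so genes printed 1 or 2 spot pairs from a lowered gene exceeded that share without being chromosomal neighbours. FMP25 and ECM21 stand 2 spot pairs from theirs, and an effect of print position on them was not tested. Among chromosomal pairs at any other spot distance 8 of 37 were lower (21.6%).

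Genes of related function were set beside 8 of the 9 neighbours, DSF2 having no such list. Of 111 measured genes in the 8 lists, the 9 left out, 2 were called lower, beside 2.92% of all genes, and 0 higher, with a median of -0.03. The lower genes were RFA2 (-0.69 ± 0.14), a subunit of RPA, with -0.84, -0.56 and -0.65 on the 3 arrays, and SEC13 (-0.80 ± 0.17), shared by the nuclear pore and vesicle coats, with -1.21, -0.34 and -0.86. Of 16 other scaffold nucleoporin genes the median was 0.01, and of 11 other genes in the list around RPA and Ty1 it was -0.19.

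No other gene of the remaining 6 lists was called. The 13 other genes of pyrimidine and CTP synthesis had a median of 0.09 and lay between -0.18 for URA2 and 0.46 for FUR1. The 15 other genes of N-glycan precursor synthesis had a median of 0.01 and ran from -0.41 for DPM1 to 0.40 for DIE2. The 21 other genes of the pheromone response had a median of 0.16, from -0.19 for PRM5 to 0.53 for FIG1. The mean of FUS1, -0.94, lay below all of theirs, but FUS1 was listed with its ratio in view, so nothing is read from that.

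Of 6 measured markers of the a mating type and 5 of the alpha mating type 0 were called, beside 2.92% of all genes lower and 0.469% higher. The a markers ran from -0.51 to 0.45 with a median of 0.23. The alpha markers ran from 0.27 to 0.35 with a median of 0.27. The 7 other genes around the oxysterol-binding proteins had a median of -0.18, down to -0.39 for SCS2. The 12 other genes around the arrestin-like adaptors had a median of 0.02, with RSP5 lowest at -0.48. The 16 other complex III genes had a median of -0.12, from -0.42 for QCR7 to 0.28 for QCR8.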

How the data were processed

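The deposited values are log2 ratios of 2 channels, 1 per spot, for 13056 spots on each of 3 arrays. What the authors did before depositing them is not given in the sources used here. Array medians were -0.52, -0.85 and -0.55, so the log2 ratios were not centred. Each ratio was that of whole numbers within a tolerance of 1e-13, from which both signals were recovered with the help of duplicate spots, and a loess curve on signal (span 0.3) was subtracted per array. The steps were also run on simulated data. Those data had the same noise for every gene on an array and no shifts between print blocks, so they are no check of the calls given here. Names came from the platform annotation (11138 spots, 5539 genes), and gene order from RefSeq R64, in which 5534 matched, used only for names and order. Spots of a gene were averaged, and limma 3.58.1 in R 4.3.3 tested the mean against 0, two-sided, with Benjamini-Hochberg adjustment over all genes. Print blocks of 272 spots were inferred from the spot order. Python 3.11.15, numpy 2.4.6, pandas 2.3.3 and matplotlib 3.10.9 were used.

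The members, lists and loess step were chosen with earlier results of these data known. Named were the 9 genes, the lowered gene nearest each, measured genes within 2 places of it, the 4 largest decreases per orientation among neighbours, and called genes of the lists. Other genes were named after their values were seen. The number of arrays limits the precision. Promoter sequences were not analysed here.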

Additional observations from a re-analysis of the deposited data

Results flagged for a closer look

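Spots without a gene name were left out of every comparison above. Fitted together with the named genes, 27 of 959 unnamed features were lower (2.82%) and 12 higher (1.25%; limma, adjusted p under 0.05), beside 2.92% and 0.469% of the named genes. They are listed because no comparison uses them.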

How the results depend on the processing

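Of 13 alternatives, 8 change the ratio of a gene. Under these all 72 ratios of the 9 neighbours lay below 0, from -2.85 to -0.41; 61 kept their side of the threshold, 6 lost the call and 5, all of ECM21, gained it. One of the 8 is the deposited scale, which is not centred and has array medians below 0. The other 5 keep the ratio and can only move the call, which 12 of 45 values lost and 1 gained. The counts moved more. With 162 lower and 26 higher genes, 8 of 9 neighbours called and 41 of 278 genes next to a lowered gene called (14.7%), median centring gave 984 and 237 genes, 388 such neighbours (24.5%, beside 17.8% of all genes), and 16 lower and 7 higher list genes. The deposited scale gave 4191 and 1 genes, 3815 neighbours (77.5%, beside 75.7% of all genes) and 78 lower list genes. Quantile normalization gave 264 and 85 genes, 64 neighbours (14.1%, beside 4.77% of all genes) and 1 higher list gene. Normexp gave 1 higher list gene. Print block medians gave 16 higher genes, 19 neighbours (9.79%, beside 2.06%), 6 of 9 called with DSF2, ALG7 and ECM21 missing, and 1 lower list gene. Leaving out dim genes gave 1 lower list gene. At an adjusted p under 0.01 there were 79 and 12 genes, 4 of 9, 10 neighbours (7.69%, beside 1.43%) and 0 list genes. The unmoderated statistic, with few degrees of freedom, called 0 lower and 1 higher genes, 0 of 9, 0 neighbours (0%) and 0 list genes. Beside genes lowered 2-fold or more 19 of 126 neighbours were lower (15.1%). With the 3 commonest spot distances left out, an alternative added after seeing the data, 6 of 29 were (20.7%). Leaving out 1 array gave 145 to 229 lower and 24 to 60 higher genes, and 6 to 8 of 9. It gave 24 to 59 neighbours (10.0% to 15.4%, beside 2.62% to 4.13% of all genes), and 1 to 4 lower and 0 to 1 higher list genes. Apart from where stated, the cause was not tested. Both strains share each array, so each ratio is already paired and the test of its mean is the paired analysis. Signals of dim spots are recovered less surely.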
